A study of Oryza sativa Indica Group with 18 samples.

Results

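The homeodomain leucine zipper genes of rice carry the symbols HOX and ROC, each followed by a number. All genes with such a symbol or synonym in the array annotation, with or without the prefix Os, were taken, and each was read from its probe set of highest mean intensity over all 18 arrays. Of 35 such genes, 33 were measured (25 HOX and 8 ROC) among 17905 genes that had a probe set matching no other gene. HOX3 and ROC9 had no such probe set. The genes were chosen by name, with no measured value in the rule, although the strong heat response of HOX24 was known when they were chosen.

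RNA was taken from whole 7-day-old seedlings of the indica rice cultivars Annapurna and IR64, grown in liquid culture, and hybridised to 18 Affymetrix arrays, 3 labelled as biological replicates in each group. In each cultivar the groups were a heat group at 37 °C for 1 h, a heat group at 37 °C for 1 h and then 42 °C for 2 h (called 42 °C here), and an unstressed control at 28 °C for 3 h. All groups shared the age, the medium and the whole-seedling harvest. The 37 °C groups were harvested after 1 h and the control and 42 °C groups after 3 h, so heat at 37 °C and elapsed time cannot be told apart, and the same holds for 42 °C against 37 °C. According to the series title 1 cultivar tolerates heat and the other is susceptible, but the labels do not say which is which. A whole seedling mixes shoot, root and grain remnant, so fewer cells of a type and less RNA per cell cannot be told apart in any value below.

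Homeodomain leucine zipper proteins are transcription factors found in plants in which a DNA-binding homeodomain is followed by a leucine zipper, through which the proteins pair before they bind DNA. Class I members are best known for responses to drought, salt and the hormone abscisic acid (ABA), class II members in Arabidopsis for shade avoidance and auxin responses, class III members for leaf polarity, vascular tissue and meristems, and class IV members, which include the ROC genes, for the epidermis and cuticle. Class III and IV proteins also carry a START lipid-binding domain, and class III transcripts are cut under the guidance of the microRNAs miR165 and miR166. The measured set held 12 class I, 8 class II, 5 class III and 8 class IV genes, the classes being taken from general knowledge of the family.

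The arrays were alike in brightness, with array medians of 7.56 to 8.17 intensity units over all probe sets, and precision is limited by there being 3 arrays in a group. Over probe sets, which are no independent replicates, log2 intensities of array pairs correlated at 0.997 to 0.999 within groups and 0.961 to 0.987 between them. Green-tissue markers (5 genes, Rubisco and light-harvesting genes among them) summed to 91707 to 117886 on every array, although RBCS1 among them stayed near 10 and single genes moved. PORB was 5348 to 6017 at 28 °C and 11432 to 11804 at 37 °C in Annapurna, and 5694 to 6067 and 10453 to 11465 in IR64. Another, rca, was 32282 to 32389 at 28 °C and 22010 to 24463 at 42 °C in Annapurna, and 24307 to 27444 and 14666 to 16759 in IR64. The 3 shoot meristem markers summed to 970.4 to 1174 at 28 °C, 558 to 614 at 37 °C and 685 to 756 at 42 °C in Annapurna, and to 697 to 1073, 447 to 517 and 619 to 704 in IR64, with OsWOX4 below 5 on every array. FON1 made up most of each of these sums. The 3 root markers (IRT1, Lsi1 and Lsi2) summed to 1776 to 2522 at 28 °C, 1546 to 1652 at 37 °C and 6365 to 7120 at 42 °C in Annapurna, and to 1114 to 1840, 1275 to 1313 and 8277 to 9224 in IR64. The higher sums at 42 °C were mostly Lsi1. Lsi2 at 42 °C overlapped the controls in Annapurna (926 to 1036, against 859 to 1205), and at 37 °C it fell in both cultivars (log2 -2.57 and -2.65), while IRT1 stayed below 50 throughout. The 8 grain markers summed to 1168 to 1442, 2014 to 2171 and 3227 to 3597 at these steps in Annapurna and to 749 to 4311, 2100 to 2235 and 11998 to 13588 in IR64, while GLUA1 and RAG1 of that list stayed below 8 on every array. The Annapurna sums were mostly GLB1, at 783 to 956 at 28 °C and 2931 to 3237 at 42 °C. GLUA2 there was 324 to 376 at 28 °C and 258 to 321 at 42 °C, and AMY1.3 and EP3A were below 10 at 42 °C. The grain amylase gene AMY1.1 stood at 8767 to 10078 on the IR64 arrays at 42 °C, at 3532 on IR64 control replicate 3 and at 124 on Annapurna control replicate 3, against 5.41 to 41.6 on all the others. Their part in the results at 42 °C, and in those that rest on these 2 control arrays, was not tested.

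Intensities are linear values per probe set as deposited, and those of different probe sets do not rank genes by transcript number. Differences are given as log2 of intensity plus 16, with their standard error (SE) from a limma fit to all 18 arrays and a p adjusted by the Benjamini-Hochberg method over all 57258 probe sets in a comparison. A gene is said to have risen or fallen where the adjusted p was under 0.05 and the difference at least 2-fold (log2 of 1). Because of the added 16, log2 differences of dim probe sets are smaller than the ratio of their intensities.

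Within the family, 5 members (HOX11, HOX17, HOX19, ROC7 and ROC8) stayed at 5.86 to 21.4 on every array, and all 5 were read by probe sets of a type that can bind transcripts of other genes. The other 28 exceeded 50 on some array. Of all 33, 11 passed the test in at least 1 of 11 comparisons, 10 of them in at least 1 of the 6 comparisons of heat steps with control or with each other, and 22 passed in none. Of all 17905 genes, 27.7% passed in at least 1 of the 11 comparisons and 24.2% in at least 1 of the 6.

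**Figure D1:**
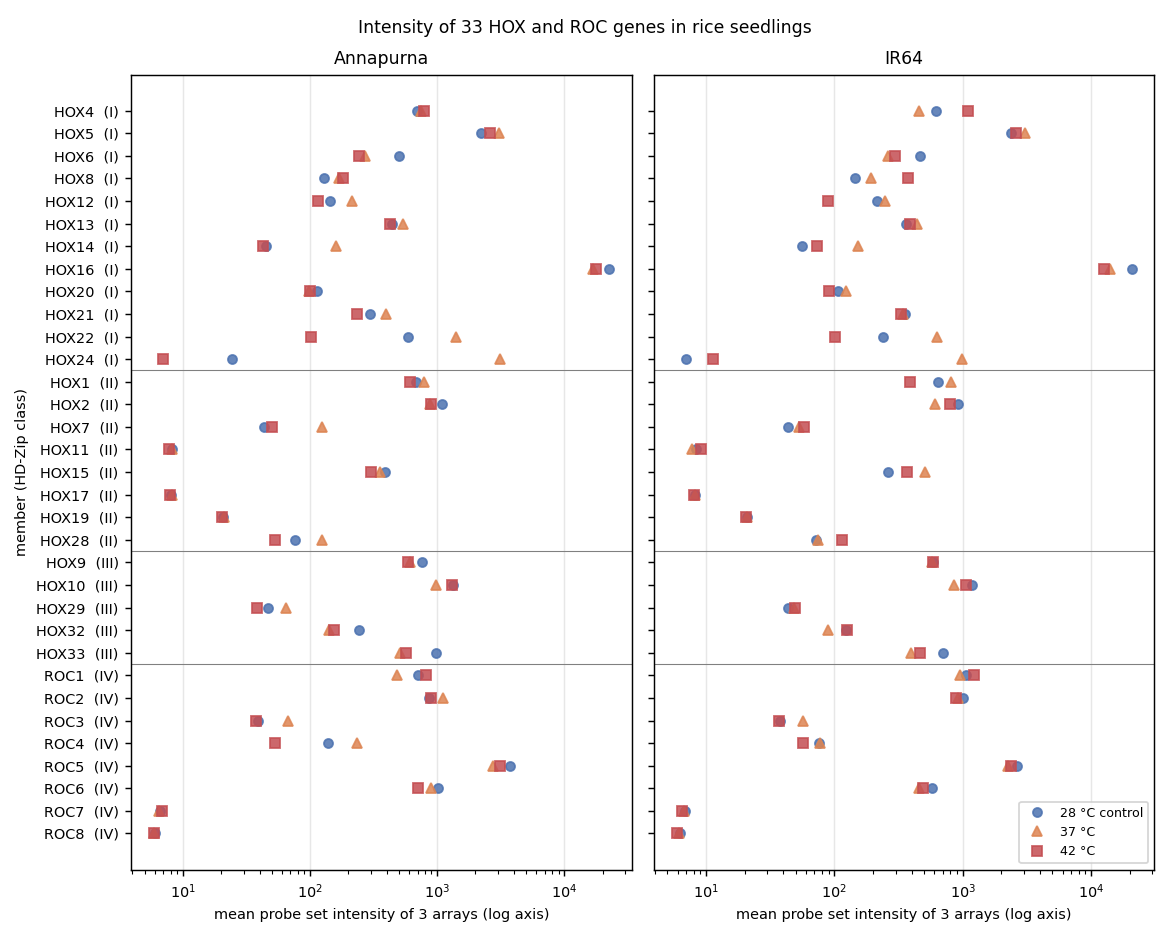
Mean intensity of each of the 33 genes over 3 arrays (x, logarithmic axis) by gene and class (y), for Annapurna on the left and IR64 on the right; circles are 28 °C controls, triangles 37 °C and squares 42 °C. HOX24 spans the widest range, with triangles at 3134 in Annapurna and 989 in IR64 and its other 4 group means between 6.93 and 24.1, while the 5 dim genes stay below 25 throughout.

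After 1 h at 37 °C, 4 of 33 members rose in Annapurna (12.1%) and none fell. Over all 17905 genes 10.3% passed in either direction, 5.56% upward. These 4 were HOX24, HOX14, HOX22 and HOX7. In IR64, 3 of 33 rose (9.09%) and none fell, beside 9.22% of all genes and 5.15% upward, and the 3 (HOX24, HOX22 and HOX14) were all among the 4 of Annapurna. The median log2 difference of the members was 0.014 in Annapurna and -0.0023 in IR64, against -0.014 and -0.0082 over all genes, so the middle of the family lay as near to 0 as that of all genes.

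At 42 °C against control no member rose and 2 fell in Annapurna (HOX22 and ROC4; 6.06% of members, beside 8.9% of all genes in either direction and 5.5% downward). In IR64 HOX8 rose and HOX12 and HOX22 fell (9.09% of members, beside 11.5% of all genes). Against 37 °C, 6 members fell at 42 °C in Annapurna and none rose (18.2%, beside 9.14% of all genes and 6.39% downward): HOX24, HOX22, ROC4, HOX14, HOX7 and HOX28. In IR64, HOX24, HOX22, HOX12 and HOX1 fell and HOX4 rose (15.2%, beside 6.45% of all genes). HOX24 and HOX22 were the 2 falls shared by the cultivars, out of 6 in Annapurna and 4 in IR64. Comparisons with 37 °C and with control share arrays and are not separate evidence for a gene. Root-marker sums, through Lsi1 for the most part, were higher on the 42 °C arrays of both cultivars, as given above.

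**Figure D2:**
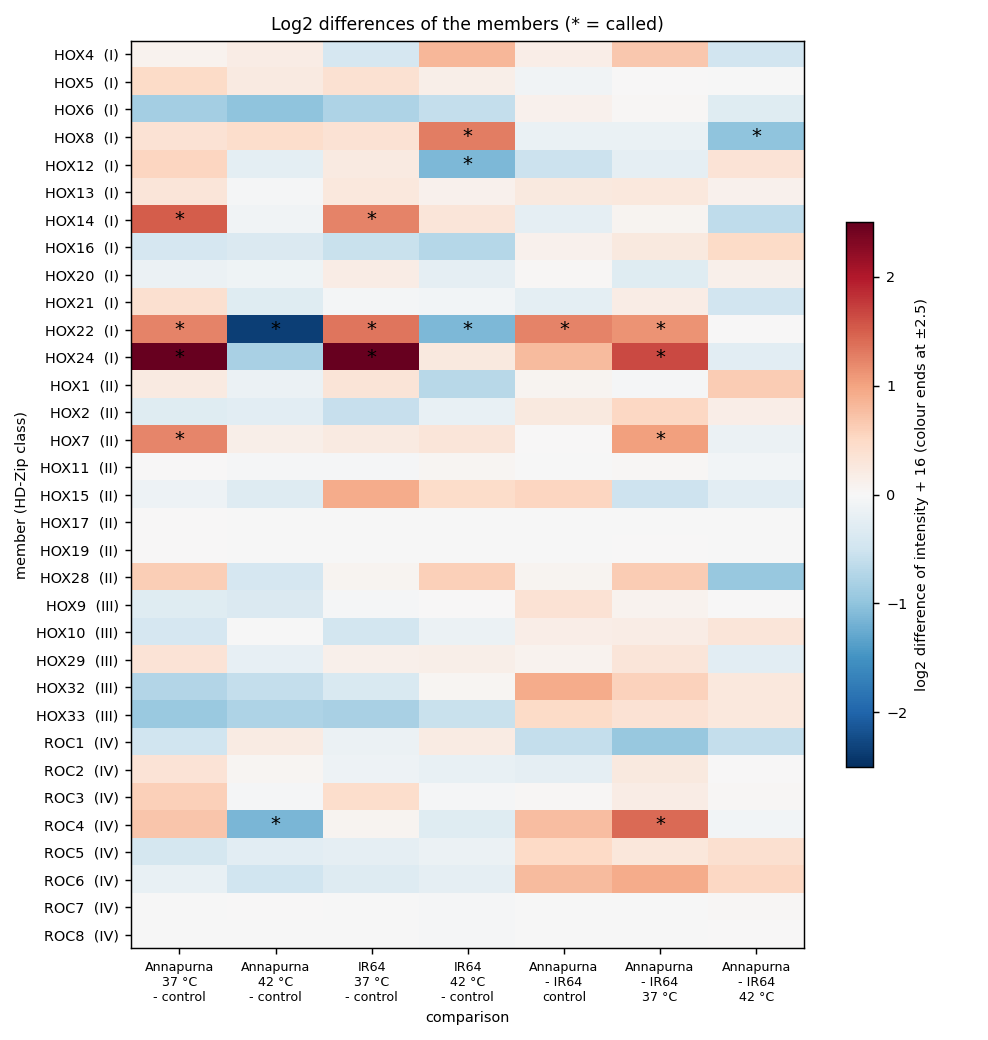
Log2 difference of each gene (rows, by class) in 7 comparisons (columns), red for higher and blue for lower in the group named first, with the colour ending at 2.5 and an asterisk where the adjusted p was under 0.05 and the difference at least 2-fold. HOX24, HOX22 and HOX14 are marked in both cultivars at 37 °C, HOX22 is marked in the opposite direction in both at 42 °C, and no class III gene is marked.

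The class I genes HOX24, HOX22 and HOX6 are close relatives known from drought and ABA experiments in rice, where HOX22 and HOX24 have been described as negative regulators of drought and salt tolerance. HOX24 (NCBI gene 4330155) was dim in the controls. In Annapurna its intensity was 25.02, 28.1 and 19.3 at 28 °C, 3032, 3281 and 3088 at 37 °C and 6.93, 6.90 and 6.96 at 42 °C. In IR64 it was 7.23, 6.43 and 7.37 at 28 °C, 981, 998 and 987 at 37 °C and 11.9, 11.7 and 10.6 at 42 °C. The 37 °C arrays stood far above every other array in both cultivars, without overlap, and the IR64 controls lay below the lowest array median, 7.56. HOX24 rose at 37 °C in Annapurna (log2 6.30 ± 0.066, adjusted p = 5.8e-17). Its mean intensity there was 129.8 times the control mean, a ratio that rests on dim controls of 19.3 to 28.1. In IR64 it rose too (log2 5.45 ± 0.066, adjusted p = 3.3e-16). With each control array set at its own array median, a floor used because the files carry no detection call, HOX24 was at least 123-fold higher in IR64 at 37 °C. It then fell at 42 °C against 37 °C in Annapurna (log2 -7.10 ± 0.066, adjusted p = 3.1e-17) and in IR64 (log2 -5.20 ± 0.066, adjusted p = 1.8e-15). The 3 Annapurna arrays at 42 °C also lay below their array medians, and against that floor HOX24 was at least 407-fold lower there. The log2 sizes depend on the amount added: with 1 and 64 in place of 16 the IR64 rise was 6.95 and 3.89 and the Annapurna fall -8.63 and -5.49.

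At 42 °C HOX24 differed from control by log2 -0.80 ± 0.066 in Annapurna (adjusted p = 2.4e-07) and by 0.25 ± 0.066 in IR64 (adjusted p = 0.0032), both under 2-fold on this scale. Both rest on dim arrays, and their size depends on the amount added before the log: with 1 in place of 16, HOX24 passed as a fall in Annapurna (-1.65), whereas IR64 gave 0.63. Annapurna arrays at 42 °C, at 6.90 to 6.96, lay below all 3 of its control arrays, and IR64 arrays at 42 °C, at 10.6 to 11.9, lay above all 3 of theirs.

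HOX22 (NCBI gene 4336542) rose at 37 °C and fell at 42 °C. Its intensity in Annapurna was 649.7, 567 and 543 at 28 °C, 1447, 1336 and 1406 at 37 °C and 111, 101 and 93.9 at 42 °C. In IR64 it was 252, 228 and 238 at 28 °C, 634, 641 and 614 at 37 °C and 94.8, 113 and 96.4 at 42 °C. In each cultivar the 3 steps did not overlap, with 37 °C highest and 42 °C lowest, and at 42 °C the cultivars overlapped. The rise at 37 °C passed in Annapurna (log2 1.23 ± 0.074, adjusted p = 7.3e-09; 2.38 times in mean intensity) and IR64 (log2 1.34 ± 0.074, adjusted p = 3.6e-09; 2.63 times). The fall below control at 42 °C passed in Annapurna (log2 -2.35 ± 0.074, adjusted p = 1.1e-11; control mean 5.74 times the 42 °C mean) and in IR64 (log2 -1.12 ± 0.074, adjusted p = 1.8e-08; 2.36 times). With 64 added before the log the IR64 fall stood at -0.88 and was no longer 2-fold.

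HOX6 (NCBI gene 4347647) followed another course from its 2 relatives. Its intensity in Annapurna was 478, 506 and 506 at 28 °C, 256, 262 and 292 at 37 °C and 247, 237 and 238 at 42 °C. In IR64 it was 486, 449.8 and 448 at 28 °C, 274, 259 and 256 at 37 °C and 307, 317 and 275 at 42 °C. All 12 heated arrays lay below all 6 controls. The differences from control at 37 °C were log2 -0.84 ± 0.057 in Annapurna (adjusted p = 2.5e-08) and -0.77 ± 0.057 in IR64 (adjusted p = 7.4e-08). Those at 42 °C were -0.998 ± 0.057 in Annapurna (adjusted p = 4.9e-09), just short of 2-fold, and -0.60 ± 0.057 in IR64 (adjusted p = 7.2e-07). None of the 4 passed the test as set, and the Annapurna value at 42 °C passed with 1 in place of 16 added (-1.04) and on leaving out replicate 1 of the Annapurna controls or of Annapurna at 42 °C (-1.02 each).

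**Figure D3:**
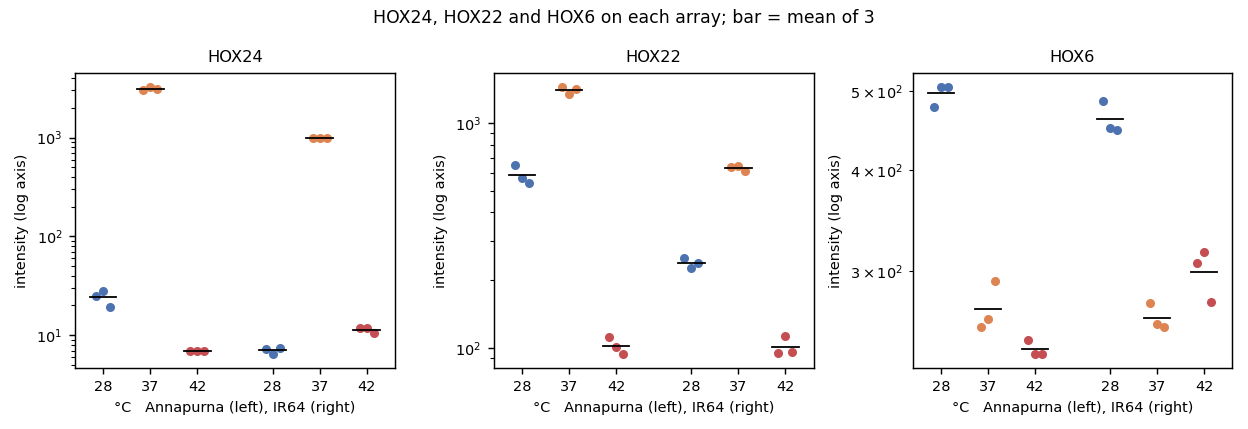
Intensity of HOX24, HOX22 and HOX6 on each array (y, logarithmic axes with their own range in each panel) at 28, 37 and 42 °C (x), Annapurna in the left and IR64 in the right part of a panel; points are arrays and bars means of 3. HOX24 and HOX22 are highest at 37 °C in both cultivars, HOX22 lies below control at 42 °C, and HOX6 lies between 237 and 317 on heated arrays, below the 448 to 506 of the controls.

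Class I held 3 of the 4 rises in Annapurna at 37 °C and all 3 in IR64, among 12 measured genes (25% in each cultivar, beside 5.56% and 5.15% of all genes upward). With so few genes these shares are a description. HOX5 is not counted among them, though its dimmer probe set rose at 37 °C in Annapurna (log2 1.31) and IR64 (log2 1.48). Beside HOX24 and HOX22, HOX14 rose at 37 °C in both cultivars. Its intensity in Annapurna was 44.4, 44.6 and 46.8 at 28 °C, 151, 175 and 153 at 37 °C and 36.98, 31.8 and 58.3 at 42 °C. In IR64 it was 54.5, 45.9 and 67.1 at 28 °C, 153, 167 and 136 at 37 °C and 87.1, 65.8 and 66.05 at 42 °C. The 37 °C arrays were the highest in both, so HOX14 peaked at the same step as HOX24. The rise passed in Annapurna (log2 1.52 ± 0.15, adjusted p = 1.8e-06) and IR64 (log2 1.23 ± 0.15, adjusted p = 1.6e-05). With 64 added before the log the IR64 value was 0.85, short of 2-fold. At 42 °C it fell against 37 °C in Annapurna (log2 -1.61 ± 0.15, adjusted p = 1.0e-06), while the IR64 value was -0.92 ± 0.15 (adjusted p = 1.9e-04), just short of 2-fold.

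HOX12, known in rice as a regulator of panicle exsertion through a gibberellin-inactivating enzyme, fell at 42 °C in IR64. Its IR64 intensity was 188, 179 and 279.8 at 28 °C, 231, 232 and 288 at 37 °C and 85.2, 93.9 and 86.1 at 42 °C, and the 42 °C arrays were the lowest. The fall passed against control (log2 -1.12 ± 0.17, adjusted p = 4.4e-05) and against 37 °C (log2 -1.34 ± 0.17, adjusted p = 3.0e-05). The highest of its controls, 279.8, was IR64 control replicate 3, the array with high AMY1.1; without it the fall against control was -0.93, short of 2-fold. In Annapurna HOX12 was 107, 138 and 185 at 28 °C, 233, 204 and 201 at 37 °C and 121, 127 and 100.2 at 42 °C, and differed from control by 0.54 ± 0.17 at 37 °C (adjusted p = 0.03) and -0.25 ± 0.17 at 42 °C (adjusted p = 0.42).

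HOX8 and HOX4 were high in IR64 at 42 °C. HOX8 in IR64 was 132, 152 and 155 at 28 °C, 217, 184 and 176 at 37 °C and 369, 387 and 377 at 42 °C. In Annapurna it was 101, 143 and 145 at 28 °C, 177, 173 and 159.6 at 37 °C and 173, 208 and 161 at 42 °C, so that the 3 IR64 arrays at 42 °C stood above all 15 others. It rose at 42 °C in IR64 (log2 1.28 ± 0.12, adjusted p = 6.0e-07), against log2 0.44 ± 0.12 in Annapurna (adjusted p = 0.011). The HOX8 probe set is of a type that may also bind transcripts of a related gene.

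HOX4, whose overexpression is known to dwarf rice plants, was 661, 690.1 and 512 in IR64 at 28 °C, 475, 467 and 427 at 37 °C and 1110.1, 1096 and 1109 at 42 °C. It rose in IR64 between 37 °C and 42 °C (log2 1.25 ± 0.079, adjusted p = 2.3e-08), and its difference from control at 42 °C was 0.83 ± 0.079 (adjusted p = 7.9e-07), short of 2-fold. In Annapurna it ran from 673 to 799.6 over all 9 arrays. The IR64 arrays at 42 °C that carried the high HOX8 and HOX4 values also carried the high AMY1.1 and Lsi1 values given above, whose part in these results was not tested.

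HOX16 had the brightest class I probe set and is given for that reason. It averaged 22529.5 ± 2103 at 28 °C, 16817 ± 1067 at 37 °C and 17671 ± 2383 at 42 °C in Annapurna (SD, n = 3 each), and 20742 ± 1035, 14156 ± 662 and 12567 ± 58.1 in IR64. Every heated array lay below every control of its cultivar. All 4 differences from control, log2 -0.42 and -0.36 in Annapurna and -0.55 and -0.72 in IR64, had an adjusted p under 0.05 and were under 2-fold. A dimmer probe set of HOX16, at 350 to 478, gave smaller differences of the same sign. They were log2 -0.18 and -0.18 in Annapurna and -0.05 and -0.13 in IR64 at 37 and 42 °C. The adjusted p of that probe set was 0.33 for IR64 at 37 °C. On the probe sets used, HOX5, HOX13, HOX20 and HOX21 lay between log2 -0.30 and 0.47 of control in all 4 heat comparisons and did not pass. Those of HOX20 and HOX21 are of a type that can bind transcripts of other genes. A dimmer probe set of HOX20 gave log2 -0.54 and -0.55 in Annapurna at 37 and 42 °C (adjusted p = 8.6e-04 and 7.7e-04), under 2-fold. In IR64 that HOX20 probe set gave -0.005 and -0.15. The dimmer probe set of HOX5 gave another reading, with rises of log2 1.31 in Annapurna at 37 °C and 1.48 and 1.39 in IR64 at 37 and 42 °C, where the brighter one gave 0.47, 0.37 and 0.14.

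Class II held 1 rise against control, in Annapurna at 37 °C (1 of 8 genes, 12.5%, beside 5.56% of all genes upward), and no fall. The intensity of HOX7 in Annapurna was 49.8, 38.6 and 42.6 at 28 °C, 130.1, 119.8 and 121 at 37 °C and 48.00, 51.4 and 51.6 at 42 °C, the 37 °C arrays standing above the rest. HOX7 rose at 37 °C (log2 1.23 ± 0.11, adjusted p = 5.0e-07) and fell at 42 °C against 37 °C (log2 -1.07 ± 0.11, adjusted p = 2.3e-06). In IR64 all 9 arrays ran from 36.6 to 70.5, and the difference at 37 °C was 0.22 ± 0.11 (adjusted p = 0.11). A dimmer probe set of HOX7 gave smaller differences of the same sign, with log2 0.91 at 37 °C in Annapurna and -0.85 at 42 °C against 37 °C, both short of 2-fold, and with 64 added before the log the brighter one gave 0.80 and -0.71.

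HOX28 and HOX1 are described in rice as genes that together shape tiller angle by lowering the heat stress factor gene HSFA2D and auxin. HOX28 was 66.4, 74.2 and 88.7 in Annapurna at 28 °C, 127, 121 and 124 at 37 °C and 50.1, 55.2 and 52.1 at 42 °C, while in IR64 it was 70.2, 77.3 and 66.4 at 28 °C, 76.2, 73.2 and 75.01 at 37 °C and 120.4, 112 and 113 at 42 °C. Annapurna was thus highest at 37 °C and IR64 highest at 42 °C, in each case without overlap with the other steps. HOX28 fell in Annapurna at 42 °C against 37 °C (log2 -1.03 ± 0.076, adjusted p = 6.9e-08; -0.69 with 64 added before the log), and no other HOX28 comparison within a cultivar passed. HOX28 lies next to HOX2 on its chromosome with no annotated gene between them. HOX2, which had the brightest class II probe set, stood at 583 to 1227 over all arrays and did not pass in any comparison. Its differences from control were -0.30 and -0.27 in Annapurna and -0.57 and -0.19 in IR64 at 37 and 42 °C.

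HOX1 was lowest in IR64 at 42 °C. Its IR64 intensity was 632, 633 and 664 at 28 °C, 786, 849 and 791 at 37 °C and 403, 420.3 and 349 at 42 °C, and it fell at 42 °C against 37 °C (log2 -1.02 ± 0.088, adjusted p = 4.8e-07). This value lay at the threshold and was -0.99 without IR64 37 °C replicate 2 and -0.95 without IR64 42 °C replicate 3. With 64 added before the log it was -0.94. In Annapurna HOX1 ran from 541 to 811 over all 9 arrays. HOX15 was 499, 476 and 559 in IR64 at 37 °C, against 270.3, 299 and 219.7 in its controls, a difference of 0.93 ± 0.12 that stopped short of 2-fold (adjusted p = 2.1e-05). In Annapurna HOX15 was 340.0, 343 and 371 at 37 °C, against 316, 394 and 456 in controls, with overlap. Its probe set may also bind transcripts of a related gene.

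**Figure D4:**
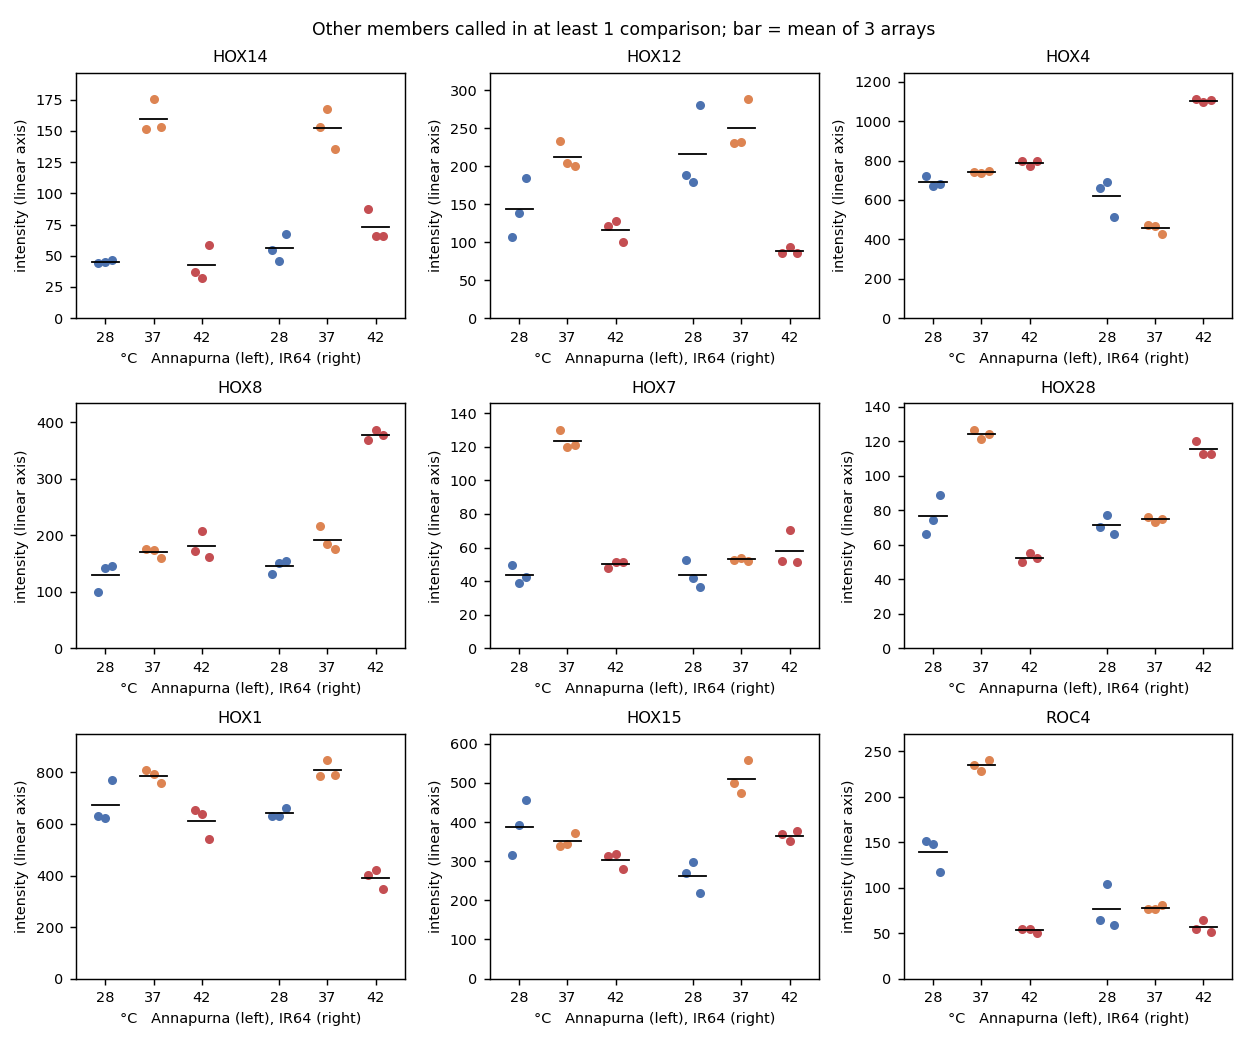
Intensity on each array (y, linear axes from 0 with their own range in each panel) of the other 9 genes that passed in some comparison, at 28, 37 and 42 °C (x), Annapurna in the left and IR64 in the right part of a panel; points are arrays and bars means of 3. HOX14 peaks at 37 °C in both cultivars, HOX7 and ROC4 peak at 37 °C in Annapurna, and HOX8 and HOX4 are highest on the IR64 arrays at 42 °C.

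None of the 5 class III genes, known for leaf polarity and vascular tissue, passed in any of the 11 comparisons. Of all genes 27.7% passed in at least 1 of them, and with 5 genes the count is a description. Most class III members were lower at 37 °C by less than 2-fold. By adjusted p alone 4 of 5 were lower in Annapurna at 37 °C and 3 of 5 in IR64, beside 32.5% and 34.6% of all genes. The shoot meristem marker sums were lower at the same step, at 558 to 614 at 37 °C, against 970.4 to 1174 in controls, in Annapurna, and at 447 to 517, against 697 to 1073, in IR64. These sums were mostly FON1, at 415 to 456, against 793 to 947, in Annapurna and 282 to 341, against 505 to 845, in IR64. OSH1 moved less, at 139 to 154, against 174 to 222, in Annapurna and 161 to 172, against 188 to 224, in IR64. OsWOX4 stayed below 5. The part of these markers in the class III values was not tested. HOX33, known for a role in leaf senescence, differed most from control. Its intensity was 1054, 978 and 911 in Annapurna at 28 °C, 491, 524 and 508 at 37 °C and 568, 593 and 537 at 42 °C. In IR64 it was 617, 714 and 776 at 28 °C, 375, 401 and 406 at 37 °C and 469.9, 471 and 465 at 42 °C. All heated arrays lay below the controls of their cultivar, by log2 -0.93 ± 0.071 and -0.78 ± 0.071 in Annapurna and -0.80 ± 0.071 and -0.56 ± 0.071 in IR64 at 37 and 42 °C, each under 2-fold.

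HOX32, a PHABULOSA-like gene whose overexpression narrows and rolls rice leaves, was 130.2, 129.6 and 163 at 37 °C in Annapurna, against 234, 263 and 235 in controls (log2 -0.74 ± 0.12, adjusted p = 1.8e-04). HOX10, which had the brightest class III probe set, differed from control by -0.42 ± 0.082 in Annapurna (adjusted p = 0.001) and -0.45 ± 0.082 in IR64 (adjusted p = 5.5e-04) at 37 °C, and at 42 °C by -0.01 and -0.15. Its intensity over both cultivars was 1165 to 1594 at 28 °C, 823 to 1003 at 37 °C and 1048 to 1354 at 42 °C. HOX9 and HOX29 lay between log2 -0.36 and 0.35 of control.

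In class IV, 1 of 8 genes passed in a heat comparison, beside 24.2% of all genes in at least 1 of the 6. This was ROC4, a regulator of leaf cuticular wax in rice. Its intensity in Annapurna was 151, 148 and 117 at 28 °C, 235, 228 and 240.3 at 37 °C and 54.9, 54.5 and 50.4 at 42 °C, 3 steps without overlap. In IR64 it was 64.6, 104 and 59.2 at 28 °C, 76.9, 76.1 and 80.5 at 37 °C and 54.8, 64.7 and 50.8 at 42 °C, and the steps lay closer. ROC4 fell at 42 °C in Annapurna against control (log2 -1.15 ± 0.14, adjusted p = 1.4e-05) and against 37 °C (log2 -1.86 ± 0.14, adjusted p = 9.8e-08). The fall against control was -0.79 with 64 added before the log. At 37 °C the difference from control was 0.70 ± 0.14 (adjusted p = 0.0012), short of 2-fold. In IR64 the differences from control were 0.06 ± 0.14 at 37 °C (adjusted p = 0.75) and -0.31 ± 0.14 at 42 °C (adjusted p = 0.06).

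ROC5, known for its effect on bulliform cells and leaf rolling, had the brightest class IV probe set, with 3749 ± 224 at 28 °C, 2757 ± 34.3 at 37 °C and 3118 ± 18.03 at 42 °C in Annapurna (SD, n = 3 each) and 2646 ± 114, 2254 ± 44.8 and 2374 ± 69.7 in IR64. The heated arrays lay below the controls in both cultivars with differences of log2 -0.44 and -0.26 in Annapurna and -0.23 and -0.15 in IR64 at 37 and 42 °C. ROC1, an epidermis marker in rice, was 490.2, 441 and 521 at 37 °C in Annapurna, against 846, 635 and 620.1 in controls (log2 -0.51 ± 0.10, adjusted p = 0.0016), with a difference of -0.15 in IR64 (adjusted p = 0.24). The other epidermis marker, the lipid transfer protein gene LTP, went the other way in Annapurna, at 7890 to 8102 at 37 °C, against 5460 to 6679 in controls (log2 0.39, adjusted p = 9.2e-05, under 2-fold). ROC3, the member whose course was most like that of HOX24, stood in Annapurna at 62.5, 65.3 and 72.8 at 37 °C, against 37.6, 35.02 and 43.4 in controls (log2 0.60, adjusted p = 3.3e-05). In IR64 ROC3 stood at 53.9, 62.6 and 54.2 at 37 °C, against 37.97, 38.3 and 36.8 in controls (log2 0.44, adjusted p = 6.0e-04), and in both cultivars the groups did not overlap. ROC2 and ROC6 lay between log2 -0.50 and 0.34 of control, and ROC7 and ROC8 were among the dim genes.

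Between the cultivars, 1 of 33 members passed in the controls (HOX22, 3.03%, beside 6.17% of all genes in either direction and 3.92% higher in Annapurna), 4 at 37 °C (HOX24, ROC4, HOX22 and HOX7, 12.1%, beside 5.45% in either direction and 3.3% higher in Annapurna) and 1 at 42 °C (HOX8, 3.03%, beside 5.6% in either direction and 3.08% lower in Annapurna). All those passing in the controls and at 37 °C were higher in Annapurna, and HOX8 was lower. HOX22 was higher in Annapurna in the controls (log2 1.24 ± 0.074, adjusted p = 1.3e-08; 2.45 times in mean intensity) and at 37 °C (log2 1.13 ± 0.074, adjusted p = 3.6e-08), with no detectable difference at 42 °C (0.01 ± 0.074, adjusted p = 0.97). HOX24 was higher in Annapurna at 37 °C (log2 1.65 ± 0.066, adjusted p = 1.6e-10; 3.17 times). In the controls its 3 Annapurna arrays, at 19.3 to 28.1, lay above its 3 IR64 arrays, at 6.43 to 7.37, with a difference of log2 0.80 ± 0.066 (adjusted p = 3.8e-07) that became 1.64 and passed with 1 in place of 16 added.

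ROC4 was higher in Annapurna at 37 °C (log2 1.42 ± 0.14, adjusted p = 2.8e-06), without overlap of the arrays given above. HOX7 was just past the threshold at 37 °C (log2 1.02 ± 0.11, adjusted p = 6.4e-06). It fell short with 64 added before the log (0.68), with quantile normalization (0.97), on its dimmer probe set (0.93) and without Annapurna 37 °C replicate 1 (0.98). HOX8 at 42 °C was as close (log2 -1.01 ± 0.12, adjusted p = 1.7e-05), and fell short with 64 added (-0.86) and with quantile normalization (-0.97). It also fell short without Annapurna 42 °C replicate 1 (-0.98), Annapurna 42 °C replicate 3 (-0.94) or IR64 42 °C replicate 2 (-0.99). Just outside the threshold stood HOX32 in the controls (0.92 ± 0.12), ROC1 (-0.95 ± 0.10) and ROC6 (0.93 ± 0.056) at 37 °C, and HOX28 at 42 °C (-0.94 ± 0.076). HOX32 passed without IR64 control replicate 2.

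**Figure D5:**
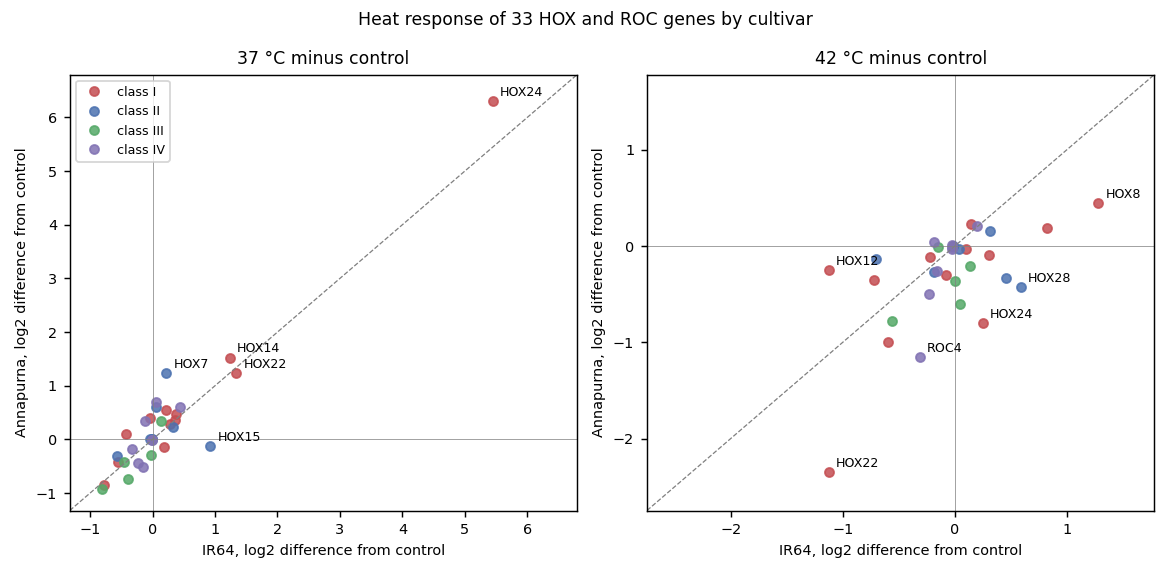
Log2 difference from control in Annapurna (y) against that in IR64 (x) for the 33 genes, at 37 °C on the left and 42 °C on the right, coloured by class; the dashed line marks equal differences. HOX24 lies far out in both cultivars at 37 °C, HOX15 and HOX7 lie off the line there, and HOX22 lies below the line at 42 °C with HOX8 to the right.

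The heat response itself was set against the other cultivar in the same fit, as the difference from control in Annapurna minus that in IR64. At 37 °C, 2 of 33 members passed (6.06%, beside 2.82% of all genes): HOX7 with log2 1.01 ± 0.16 (adjusted p = 6.6e-04) and HOX15 with -1.05 ± 0.17 (adjusted p = 8.6e-04). Both lay at the threshold, and single arrays moved them below it. Without Annapurna control replicate 3 HOX15 was -0.93, without IR64 control replicate 3 -0.94 and without IR64 37 °C replicate 3 -0.99. HOX7 was 0.95 without Annapurna control replicate 2, 0.998 without Annapurna control replicate 3, 0.90 without IR64 control replicate 1 and 0.98 without Annapurna 37 °C replicate 1. For HOX24 the value was 0.85 ± 0.094 (adjusted p = 3.6e-05), but it was 0.026 with 1 and 1.29 with 64 in place of 16 added, so these data give no settled size for it. HOX22 gave -0.11 ± 0.11 (adjusted p = 0.47), a difference not detectable at this precision.

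At 42 °C, 3 of 33 members passed (9.09%, beside 5.54% of all genes in either direction and 3.66% downward), all with the lower value in Annapurna: HOX22 (log2 -1.23 ± 0.11, adjusted p = 1.6e-06), HOX24 (log2 -1.05 ± 0.094, adjusted p = 2.3e-06) and HOX28 (log2 -1.02 ± 0.11, adjusted p = 1.1e-05). For HOX22 the Annapurna controls stood above the IR64 controls, while the 42 °C arrays of the cultivars overlapped at 93.9 to 111 and 94.8 to 113. The HOX24 value rests on intensities of 6.43 to 28.1 and was -2.28 with 1 and -0.40 with 64 added. Without Annapurna control replicate 2 it was -0.98. HOX28 was -0.92 without Annapurna control replicate 3, -0.98 without IR64 control replicate 3, -0.99 without Annapurna 42 °C replicate 1, -0.99 without IR64 42 °C replicate 1, -0.81 with quantile normalization and -0.67 with 64 added.

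Control replicate 3 of both cultivars stood apart in AMY1.1. With both arrays left out, HOX24 and HOX22 kept all their calls, while HOX12 in IR64 at 42 °C (-0.93), HOX15 in the response difference at 37 °C (-0.82) and HOX28 in that at 42 °C (-0.88) fell short of 2-fold.

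Among 2449 other genes with a name, those whose log2 intensity followed HOX24 most closely over the 18 arrays were PDC1 (a pyruvate decarboxylase gene; Pearson r = 0.994), HSP17.8 (a small heat shock protein gene; 0.991), HSF4 (a heat stress transcription factor gene; 0.988), CLPB-M (a ClpB disaggregase gene; 0.987) and GLUP4 (a small GTPase gene; 0.985). The arrays share 6 groups and the coefficients rest on the step between the 37 °C arrays and the rest, so they are given as a description. Mean intensities of PDC1 were 6.64 at 28 °C, 472 at 37 °C and 7.06 at 42 °C in Annapurna, and 4.95, 209 and 10.1 in IR64. HSP17.8 averaged 16.3 at 28 °C, 803 at 37 °C and 18.02 at 42 °C in Annapurna, and 11.5, 256 and 16.98 in IR64. Like HOX24, both were high at 37 °C alone. Within the family the closest were ROC3 (r = 0.959), HOX14 (0.912) and HOX22 (0.831), and the most opposed was HOX10 (-0.727).

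Other homeobox families were read from lists of gene names. Of 7 measured WOX genes, 1 rose at 37 °C in each cultivar (14.3%, beside 5.56% and 5.15% of all genes upward). This was OsWOX11, known for crown root formation, with mean intensity 334 in heated Annapurna, against 17.3 in controls (log2 3.40 ± 0.098, adjusted p = 2.6e-12), and 117 in heated IR64, against 14.6 (log2 2.11 ± 0.098, adjusted p = 5.2e-10). At 42 °C OsWOX11 fell against 37 °C in both (-3.32 and -1.87), with means of 18.998 and 20.5, and OsWOX6 fell in Annapurna (-1.14). That is 2 of 7 WOX genes in Annapurna and 1 of 7 in IR64, beside 9.14% and 6.45% of all genes in either direction. The rise of OsWOX11 at 37 °C was larger in Annapurna by log2 1.29 ± 0.14 (adjusted p = 2.9e-05). None of 9 KNOX genes passed against control, beside 8.9% to 11.5% of all genes in those comparisons. HOS16 alone rose between 37 °C and 42 °C in IR64 (1.02), beside 6.45% of all genes in either direction. None of 4 zinc finger homeodomain genes passed in any of the 11 comparisons, beside 27.7% of all genes in at least 1. A cuticle and wax list, matched by symbol alone, caught 4 genes (KCS20, wsl3, wsl6 and wsl8). Whether the wsl genes act in wax was not checked, so they are not given here as wax genes. Of the 4, wsl6 rose in Annapurna at 42 °C (1.07), beside 8.9% of all genes in either direction. None passed in IR64 or at 37 °C. The response difference at 42 °C passed in 1 of the 4, higher in Annapurna, beside 5.54% of all genes. With lists of 4 to 9 genes these counts are a description.

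HOX24 and HOX22 are known from ABA and drought work, so named genes of the ABA response were set beside them. The list held 68 genes, of which 55 were protein phosphatase 2C genes, a family in which only some members act in ABA signalling. The other 13 were dehydrin, ABA catabolism, receptor and transcription factor genes, with EM and LEA19 besides. Of these 13, 9 rose and none fell at 37 °C in Annapurna, and 6 rose and 1 fell in IR64. Over the whole list the largest differences were those of the dehydrin genes RAB16B (log2 3.73 ± 0.082, adjusted p = 1.8e-13) and RAB16D (3.22) and the phosphatase gene OsPP2C59 (3.58) in Annapurna, and those of the phosphatase genes PP2C68 (3.04), OsPP2C59 (2.57) and OsPP2C30 (2.43) in IR64. The median of the 13 was 1.60 in Annapurna and 0.82 in IR64 at 37 °C, beside -0.014 and -0.0082 over all genes. The phosphatase genes had 5 rises and 4 falls among 55 in Annapurna, and 5 rises and 1 fall in IR64. Of the whole list 18 of 68 passed in Annapurna (26.5%) and 13 in IR64 (19.1%), beside the 10.3% and 9.22% of all genes.

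At 42 °C against 37 °C, 8 of the 13 fell and 1 rose in Annapurna, and 8 of the 55 phosphatase genes fell and none rose (25% of the whole list, beside 9.14% of all genes). HOX24 and HOX22 fell there too. The largest falls of the whole list were PP2C68 (-4.00), OsPP2C30 (-3.90) and RAB16B (-3.88). In IR64 7 of the 13 rose and 1 fell, and of the 55 phosphatase genes none rose and 6 fell, so that the whole list had 7 rises and 7 falls (20.6%, beside 6.45% of all genes). HOX24 and HOX22 fell at this step as well. The largest differences in the list were RAB16C (2.96), PP2C68 (-2.44) and RAB21 (2.29). The test of the response difference at 42 °C passed in 7 of the 13, all lower in Annapurna, and in 10 of the 55 phosphatase genes, 4 higher and 6 lower. Over the whole list 4 were higher and 13 lower (25%, beside 5.54% of all genes), with RAB16B at -3.46 ± 0.12 (adjusted p = 1.9e-10). Dehydrin transcripts are also abundant in grain tissue, and the IR64 arrays at 42 °C carried AMY1.1 at 8767 to 10078. Its part in these values was not tested.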

How the data were processed

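The deposited intensity values are linear, 1 per probe set and array, from 18 Affymetrix rice arrays hybridised with RNA labelled from the 3' end, per the labels' protocols. GCOS is the tool named per the submitters' processing notes, and how intensities were summarized and scaled was not given in the sources used here. Of 57381 probe sets, 123 controls were left out. Values were analysed as log2 (intensity plus 16) with no further normalization, and 6 group means were fitted with limma 3.58.1 in R 4.3.3 (empirical Bayes with a variance trend, 12 residual degrees of freedom). The p-values of 11 two-sided comparisons were adjusted by Benjamini-Hochberg within each, and a probe set was called at adjusted p under 0.05 and at least 1 log2. Array annotation gave gene names, and probe sets of exactly 1 gene were used. Tested on simulated data for Annapurna 37 °C against control (57258 probe sets), the fit recovered 100 of 100 changes of 1.5 log2 and 100 of 100 of 2 log2. The changes were placed only in probe sets with an average level above 50. This run of the code therefore does not cover dim probe sets or differences near 1 log2.

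Called members, HOX24, HOX22, HOX6, the brightest member of each class, members next to the threshold, the 5 named genes most like HOX24 and the 3 largest called genes of the other lists are named. In the other lists, single genes stand for counts of 1. Members and lists were chosen with earlier results of these data known. Alternatives were another pseudocount, quantile normalization, a filter on dim probe sets, no variance trend, a second probe set, a replicate block and leaving out arrays. A planned promoter motif search and a check of classes on protein sequence were not used here, and no BELL gene matched.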

Additional observations from a re-analysis of the deposited data

Results flagged for a closer look

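The heat response of 5 members differed between the cultivars by the test of the difference itself, given as the response of Annapurna minus that of IR64, in limma's fit with Benjamini-Hochberg adjustment. At 37 °C HOX7 gave log2 1.01 ± 0.16 (adjusted p = 6.6e-04) and HOX15 -1.05 ± 0.17 (adjusted p = 8.6e-04). At 42 °C HOX22 gave -1.23 ± 0.11 (adjusted p = 1.6e-06), HOX24 -1.05 ± 0.094 (adjusted p = 2.3e-06) and HOX28 -1.02 ± 0.11 (adjusted p = 1.1e-05).

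HOX22 still passed with each of the 18 arrays left out in turn. The other 4 fell short of 2-fold when some single array was left out, with the values given beside each in the results.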

How the results depend on the processing

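The number of members called moved by over 1.5 times as follows. With 1 in place of 16 added before the log, Annapurna at 42 °C against control had 4, the cultivars in control 3 and at 42 °C 2. With 64 added, Annapurna at 42 °C had 1, IR64 at 42 °C 1, the cultivars at 42 °C 0, and the response differences 1 each. At 37 °C that 1 was HOX24, HOX7 (0.68) and HOX15 (-0.93) being lost, and at 42 °C it was HOX22, HOX24 (-0.40) and HOX28 (-0.67) being lost. Quantile normalization gave 0 for the cultivars at 42 °C and 1 for the response difference at 37 °C. For that difference the second probe set of a gene gave 1, and so did leaving out control replicate 3 of both cultivars, which was chosen after seeing the data. The 0 counts at 42 °C are from limma, with HOX8 at -0.86 and -0.97. Leaving out each array in turn gave 4 to 4, 2 to 3 and 6 to 6 members in Annapurna at 37 °C, at 42 °C and at 42 against 37 °C, 3 to 4, 2 to 3 and 4 to 6 in IR64, 1 to 2, 3 to 5 and 0 to 1 between the cultivars in control, at 37 and at 42 °C, and 0 to 2 and 2 to 4 for the response differences. Small differences of HOX6 and HOX22 changed sign. HOX6 between the cultivars at 37 °C (0.03) was -0.0239 with quantile normalization and ran from -0.0207 to 0.068 without single arrays. HOX22 at 42 °C (0.01) ran from -0.0453 to 0.0794.

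With a replicate block the counts were 4, 2 and 6 in Annapurna, 3, 3 and 5 in IR64, 1, 4 and 1 between cultivars and 2 and 3 for the response differences, as without it. Arrays sharing a number had a median correlation of deviations of 0.0017 over 45 pairs, and the numbers were not taken to pair the samples. Single pairs ran from -0.235 to 0.206. A median over all groups cannot exclude pairing in some of them, such as the controls, where replicate 3 of both cultivars stood apart in AMY1.1. Dim probe sets, HOX24 in the controls and at 42 °C among them, have no settled fold change.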
